A study of Mus musculus with 7 samples.

Results

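The 8 genes described here encode enzymes of glyoxylate and hydroxyproline breakdown or related to it: Hao1, Hao2, Prodh2, Hoga1, Agxt, Agxt2, Grhpr and Ldha. They were chosen by name as steps of glycolate, glyoxylate and hydroxyproline breakdown, with the difference between knockout and rescued livers already known, so their differences are given as a description without a test. All 8 were measured among 19933 genes, each by 1 probe set annotated to that gene alone. Liver RNA from 7 C57BL/6 male mice aged 4 months was hybridised to Affymetrix Mouse Gene ST arrays, which report a brightness for each probe set. The 3 knockout mice, labelled HDAC3 knockout, had received an adeno-associated virus (AAV) carrying Cre recombinase. The 4 rescued mice, labelled HDAC3 rescued wild-type, had received the same AAV-Cre together with AAV-Flag-HDAC3, which encodes the wild-type protein. The titles of these 4 arrays call them WT liver, while their source and genotype labels give the rescue, and they are called rescued here. All mice ate normal chow freely, and livers were taken 2 weeks after injection at 5 pm (ZT10). HDAC3 is a histone deacetylase that works in nuclear receptor corepressor complexes. The labels do not name the allele that Cre acts on or the promoter that drives it, the rescued mice carry an additional vector, and no uninjected liver was analysed here.

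Glyoxylate is a reactive acid that the liver must keep low, because its oxidation gives oxalate, which mammals cannot break down and which forms kidney stones with calcium. In hepatocyte peroxisomes, glycolate oxidase turns glycolate into glyoxylate and alanine-glyoxylate aminotransferase turns glyoxylate into glycine. In mitochondria, hydroxyproline from collagen is another source of glyoxylate. Inherited loss of the enzymes that clear glyoxylate causes primary hyperoxaluria in humans, and silencing of human HAO1 in liver is used to treat it.

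Values below are log2 intensities, and differences are knockout minus rescued on that scale. Probe sets differ in brightness for the same amount of RNA, so levels are compared between groups and not between genes. The Hdac3 transcript itself had 8.93, 8.75 and 9.07 in the knockout livers, against 9.23, 9.45, 9.55 and 9.38 in the rescued livers. It was lower by a difference of -0.48 (SE 0.10, adjusted p = 0.0124 by limma), without overlap of the groups. Without knockout replicate 1 the difference was -0.49 with adjusted p = 0.05001, just past the threshold of 0.05. The probe set may also read the vector's transcript, so it checks the labels only in part. Median array intensity was 105.0 to 110.8 in knockout and 96.3 to 102.3 in rescued livers, and the median difference over all genes was 0.09. The 5 hepatocyte markers measured of 8 listed (among them Alb and Apoa1) summed to intensities of 54045 to 55247 in knockout and 53988 to 54810 in rescued livers, and none passed the test. Of 27 measured markers of Kupffer, endothelial, stellate, bile duct and white blood cells, the endothelial Clec4g passed as lower and the stellate Lrat as higher. The summed bile duct markers did not overlap, at 513 to 584 in knockout and 445 to 492 in rescued livers, with none of the 4 passing. Whether these cell types bear on the results below was not tested. In whole liver, fewer cells of a type and less RNA per cell cannot be told apart.

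Of the 8 genes, Hao1 and Prodh2 were lower in every knockout liver than in any rescued liver, and the other 6 overlapped between the groups. Over all genes 29.6% had groups that did not overlap. Because the members were chosen with this contrast known, nothing is read from the comparison of these shares. The median difference of the 8 was 0.0015, against 0.09 over all genes.

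**Figure D1:**
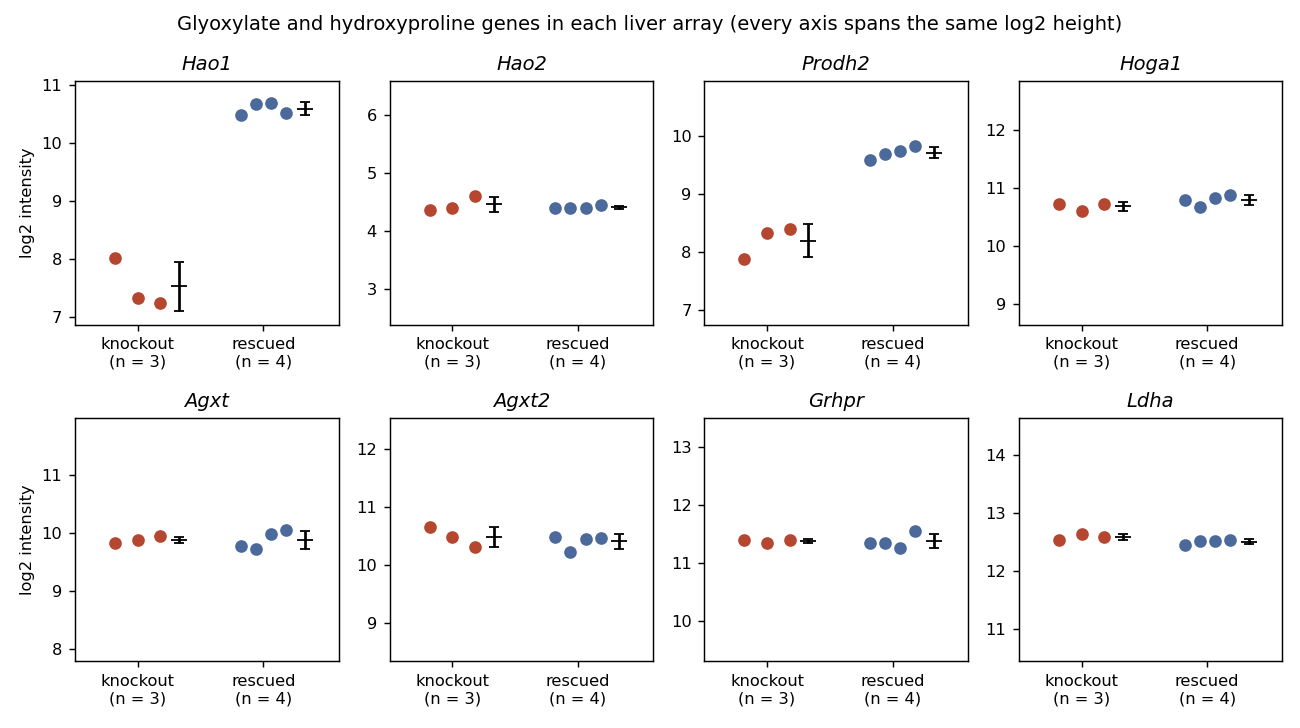
Log2 intensity of the 8 genes in each array, with knockout livers (red, n = 3) left of rescued livers (blue, n = 4) and mean ± SD beside the points. Hao1 and Prodh2 sit lower in all 3 knockout livers, while the points of the other 6 genes overlap.

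Hao1 (probe set 10488010) encodes glycolate oxidase, the flavin enzyme of liver peroxisomes that oxidises glycolate to glyoxylate. It had 8.02, 7.32 and 7.25 in the knockout livers, against 10.49, 10.68, 10.69 and 10.52 in the rescued livers. Every knockout value lay well over 2 log2 units below the lowest rescued value. On the linear scale these were intensities of 259, 160 and 152 in knockout livers and of 1434, 1646, 1656 and 1468 in rescued livers. The knockout livers thus read 16.7%, 10.4% and 9.84% of the rescued geometric mean. The mean was 7.53 ± 0.42 in knockout (SD, n = 3) and 10.60 ± 0.11 in rescued livers (SD, n = 4), a difference of -3.06 (SE 0.16) or 8.37-fold lower. Only 1 of the 19933 genes had a larger negative difference. The knockout livers were spread over 0.77 log2 units and the rescued livers over 0.21. The knockout mean exceeded 99.7% of 1190 receptor genes of smell and pheromone sensing (Olfr, Vmn), which serve as a guide to background because liver is not known to use them. Each knockout value of Hao1 also lay above the median gene of its own array (6.96, 6.90 and 6.88).

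Prodh2 (probe set 10551939) encodes hydroxyproline dehydrogenase, the mitochondrial enzyme that opens the breakdown of hydroxyproline. It had 7.88, 8.32 and 8.40 in the knockout livers, against 9.59, 9.70, 9.75 and 9.82 in the rescued livers. The groups stood more than 1 log2 unit apart at their nearest values. The knockout livers read 28%, 38.2% and 40.1% of the rescued geometric mean. The means were 8.20 ± 0.28 in knockout (SD, n = 3) and 9.72 ± 0.10 in rescued livers (SD, n = 4), a difference of -1.52 (SE 0.12) or 2.86-fold lower. This was the 11th largest negative difference of all genes. Hao1 and Prodh2 did not order the knockout livers alike: replicate 1 held the highest Hao1 value and the lowest Prodh2 value of the group. Neither followed the order of Hdac3, which was lowest in replicate 2.

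The promoter windows of these 2 genes are shown because Hao1 and Prodh2 were both lower. Each is the 250 bases before the annotated start, from RefSeq on GRCm38.p6, 5′ to 3′ on the gene's strand. All 8 genes matched the promoter table, with 10 windows, since Agxt2 and Ldha have 2 each. Capitals mark matches, on either strand, to any of 7 short motifs of transcription factors. AGGTCA is a nuclear receptor half-site, and the DR1 motif is a direct repeat of it around a spacer base, read by HNF4A and PPAR dimers. CAAAGTCCA is another form bound by HNF4A. TATAAA is read by the general factor TBP. TGTTTAC is read by forkhead factors such as the FOXA proteins. TTGCNNAA is read by C/EBP factors of liver and fat, and CACGTG is the E-box of the clock and other factors. The Hao1 window is chr2:134554353-134554602 on the minus strand and that of Prodh2 chr7:30493408-30493657 on the plus strand.
Hao1: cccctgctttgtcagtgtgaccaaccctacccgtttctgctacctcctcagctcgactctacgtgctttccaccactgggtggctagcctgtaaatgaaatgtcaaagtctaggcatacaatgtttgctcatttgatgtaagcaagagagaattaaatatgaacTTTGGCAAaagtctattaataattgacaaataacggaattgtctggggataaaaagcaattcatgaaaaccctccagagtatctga
Prodh2: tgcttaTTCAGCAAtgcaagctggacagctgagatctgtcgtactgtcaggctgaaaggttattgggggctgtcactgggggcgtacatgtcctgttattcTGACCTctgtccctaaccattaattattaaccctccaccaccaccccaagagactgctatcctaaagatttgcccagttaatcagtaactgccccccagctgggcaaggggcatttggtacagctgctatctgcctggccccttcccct

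In these windows Hao1 held 1 match, to TTGCNNAA at bases 86 to 79 upstream of the start. Prodh2 held 2, to TTGCNNAA at 244 to 237 and AGGTCA at 149 to 144. TTGCNNAA was thus found in 2 of the 10 member windows, against 9.56% of the 32851 windows of the table. The half-site AGGTCA was found in 2 of the 10, of Prodh2 and Agxt2, against 14.02% of all windows. CACGTG was found in 1 of the 10, of Ldha, against 6.02%. Agxt2 also held CAAAGTCCA (0.384% of all windows) and TATAAA (12.4%). DR1 (0.0335% of all windows) and TGTTTAC (3.17%) matched no member, and Hao2, Hoga1, Agxt and Grhpr held none of the motifs. A match is a run of letters and not a shown binding site.

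Hao2 (probe set 10500570) encodes a peroxisomal oxidase of other hydroxy acids, known mainly from kidney. It had 4.37, 4.41 and 4.61 in the knockout livers, against 4.40 in 3 rescued livers and 4.46 in the fourth. Its means lay at percentile 50.7 of the receptor genes in knockout and 54.5 in rescued livers, so it was not shown to be above background in either group. The 3 equal rescued values are identical in the deposited table, which happened in 3 or 4 rescued arrays for 2.47% of its rows.

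The remaining source of glyoxylate and the enzymes that remove it overlapped between the groups. Hoga1 (probe set 10463200), the mitochondrial hydroxyoxoglutarate aldolase that splits the last intermediate of hydroxyproline into glyoxylate and pyruvate, had 10.72, 10.60 and 10.73 in knockout livers. It had 10.79, 10.68, 10.83 and 10.89 in rescued livers. The difference was -0.11 (SE 0.07), and all knockout values lay below 3 of the 4 rescued values. After median centring it was -0.20, beyond the within-group SD of 0.08 from the value as deposited. Hoga1 acts downstream of Prodh2 in the same pathway, where the difference of Prodh2 was -1.52.

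Agxt (probe set 10348702), the aminotransferase that turns glyoxylate into glycine and whose human loss causes primary hyperoxaluria, had 9.83, 9.88 and 9.94 in knockout livers. It had 9.77, 9.73, 9.98 and 10.05 in rescued livers. All 3 knockout values fell inside the rescued range, with a difference of 0.0018 (SE 0.09). Agxt2 (probe set 10423053), a mitochondrial aminotransferase that can also use glyoxylate and that breaks down dimethylarginine and beta-aminoisobutyrate, had 10.65, 10.47 and 10.31 in knockout livers. It had 10.48, 10.22, 10.44 and 10.47 in rescued livers, and the difference was 0.08 (SE 0.10). Knockout replicate 1 was the highest of all 7 arrays for Agxt2 and rescued replicate 2 the lowest.

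Grhpr (probe set 10504504) encodes glyoxylate and hydroxypyruvate reductase, which returns glyoxylate to glycolate. It had 11.39, 11.34 and 11.40 in knockout livers, against 11.34, 11.35, 11.26 and 11.55 in rescued livers. The knockout livers were the tighter group and lay within the rescued range, with a difference of 0.0012 (SE 0.08). Ldha (probe set 10553301), the lactate dehydrogenase subunit that can oxidise glyoxylate to oxalate, had 12.53, 12.64 and 12.59 in knockout livers. It had 12.44, 12.52, 12.51 and 12.53 in rescued livers. The difference was 0.08 (SE 0.06), close to the 0.09 of the median gene, and it was between -0.0062 and 0.02 after the arrays were rescaled.

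**Figure D2:**
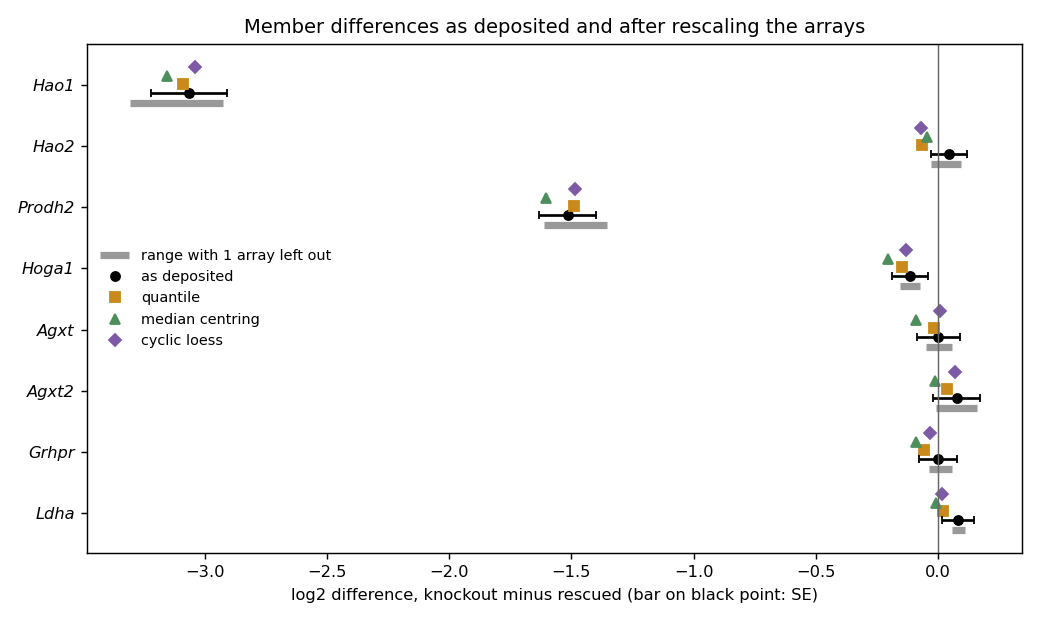
Difference in log2 intensity (knockout minus rescued) of each gene as deposited (black, with SE) and in 3 other scalings (quantile, median, cyclic loess), with a grey bar for the range when each array was left out in turn. Hao1 stays between -3.31 and -2.92 and Prodh2 between -1.61 and -1.35, while the other 6 lie between -0.20 and 0.16.

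The sign of 5 of the 6 overlapping members depended on the scaling of the arrays. Hao2 had a difference of 0.05 as deposited against -0.07 with quantile scaling, -0.04 with median centring and -0.07 with cyclic loess. Agxt, Agxt2, Grhpr and Ldha also changed sign under at least 1 of these scalings, Agxt2 and Ldha under median centring alone and Grhpr under all 3. Hoga1 was negative throughout. Hao1 was at -3.09, -3.15 and -3.04 and Prodh2 at -1.49, -1.61 and -1.49. With each array left out in turn, Hao1 ranged from -3.31 (without knockout replicate 1) to -2.92, and Prodh2 from -1.61 to -1.35 (without knockout replicate 1). In spread, the pooled within-group SD of Hao1 (0.28) lay at percentile 98.5 of all genes and that of Prodh2 (0.19) at percentile 92.7, while Ldha (0.05) lay at percentile 4.83.

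Genes next to this pathway, which are not among the 8, were grouped in 7 lists and tested in the same fit. Of 85 listed genes 74 were measured by a probe set with 1 symbol, and 13 passed at the threshold of 0.05, of which 8 were higher and 5 lower in knockout livers. The balance turned with the scaling, to 5 higher and 8 lower after quantile, 3 and 11 after median and 5 and 7 after cyclic loess scaling. The 13 are 17.6% of the measured genes, against 14.4% of all genes (9.54% higher and 4.85% lower), so the count is near the background. Of the genes named below, P4ha2, Gcsh, Sardh, Glyctk, Ddo and Hyi passed after rescaling and not as deposited, and were picked after their values were seen. The median difference of the 74 was 0.06, against 0.09 over all genes. Of the 74, 8 genes (3 higher and 5 lower) passed as deposited and with the same sign after all 3 scalings. Over all genes 1330 of 19933 did so (6.67%, both directions together), and this share was not split by direction. The count of related genes that passed was 3 when knockout array 1 was left out, 5 for knockout array 2, and 6 for rescued array 2 as for rescued array 3.

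**Figure D3:**
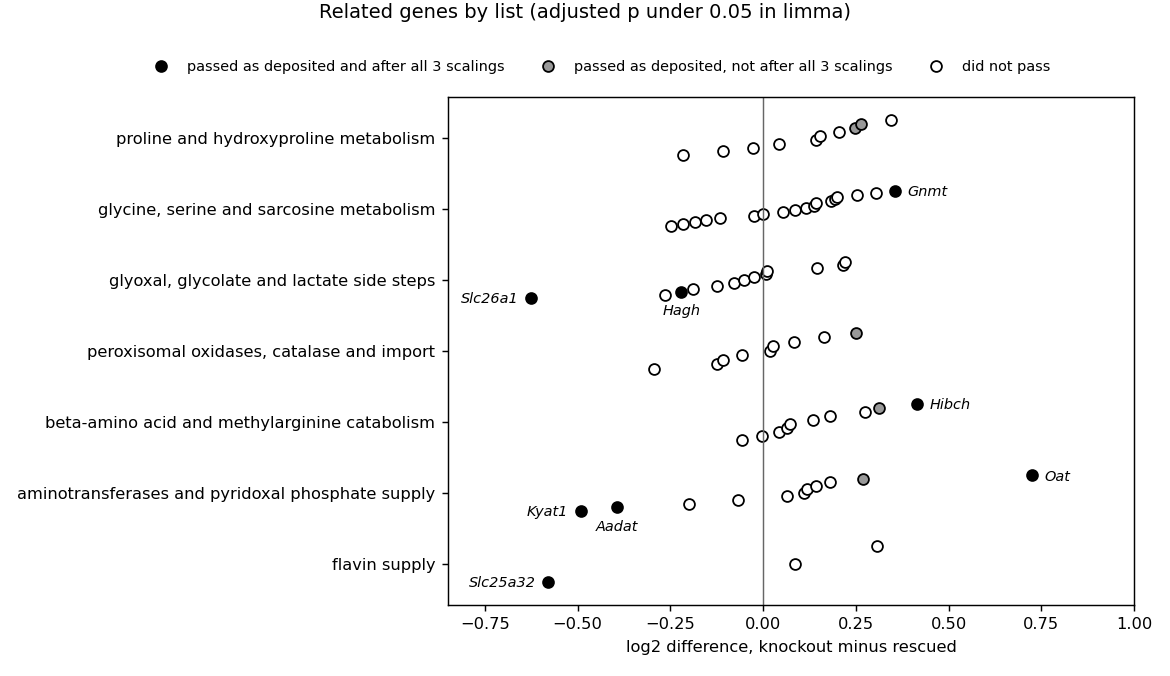
Log2 difference (knockout minus rescued) of the 74 related genes by list, 1 point a gene, filled by whether it passed an adjusted p under 0.05. Slc26a1 and Slc25a32 lie farthest to the left and Oat farthest to the right, and the 8 labelled genes passed as deposited and after all 3 scalings.

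Among 13 genes of glyoxal, glycolate, lactate and oxalate handling, 2 were lower and none higher (median difference -0.05). In some other settings 1 gene of this list passed as higher. These were genes above the median level, trend with robust spread, and leaving out knockout replicate 3 or rescued replicate 1. Slc26a1, an anion exchanger of the hepatocyte membrane that carries sulfate and oxalate, had 8.90, 8.96 and 8.82 in the knockout livers, against 9.61, 9.38, 9.50 and 9.58 in the rescued livers. The groups were clearly apart, with a difference of -0.63 (SE 0.08), 1.54-fold lower, and adjusted p = 0.00118. It passed with every array left out and in every other setting (adjusted p 0.000413 to 0.0101). Hagh, the glyoxalase that hydrolyses lactoylglutathione, was 1.17-fold lower, at 10.89 ± 0.03 in knockout (SD, n = 3) and 11.11 ± 0.06 in rescued livers (SD, n = 4). Its adjusted p was 0.0477, and the call was lost whichever array was left out (adjusted p 0.0679 to 0.108). Hyi, a hydroxypyruvate isomerase, also passed as lower after median centring (adjusted p = 0.0225).

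Of 3 measured genes of flavin supply, the cofactor of Hao1 and Prodh2, 1 was lower and none higher. Without rescued replicate 1, the list had 1 higher gene beside the lower one. Slc25a32, a mitochondrial carrier for folate and flavin, had 8.36, 8.59 and 8.76 in knockout livers, against 9.17, 8.98, 9.37 and 9.06 in rescued livers. It was 1.49-fold lower, with a difference of -0.58 (SE 0.11) and adjusted p = 0.0103. The call was kept in the 14 alternatives that use the threshold of 0.05, narrowly so without knockout replicate 1 (adjusted p = 0.04998), and not at a threshold of 0.01.

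Of 11 measured genes of aminotransferases and pyridoxal phosphate supply, the cofactor of Agxt and Agxt2, 2 were higher and 2 lower (median difference 0.11). Oat, the ornithine aminotransferase whose product leads to proline or glutamate, had 13.17, 13.09 and 13.14 in knockout livers, against 12.49, 12.30, 12.43 and 12.41 in rescued livers. It was 1.65-fold higher with little spread (difference 0.73, SE 0.07, adjusted p = 0.000285). Kyat1, a kynurenine aminotransferase, was lower at 9.99, 9.85 and 10.34 in knockout livers, against 10.57, 10.49, 10.65 and 10.50 in rescued livers (difference -0.49, adjusted p = 0.0168). It did not pass when knockout array 1 or 2 or rescued array 3 was left out (adjusted p up to 0.0733). Aadat, the aminoadipate aminotransferase, was 1.31-fold lower (adjusted p = 0.0386). Without any 1 knockout array or rescued replicate 2 or 3 it did not pass (adjusted p up to 0.104), and rescued replicate 4 was its highest array. Gpt2, the mitochondrial alanine aminotransferase, which supplies or uses the alanine that Agxt consumes, was 1.21-fold higher (adjusted p = 0.0382). It did not pass in any of the 3 scalings (adjusted p 0.0723 to 0.125) or for 5 of the 7 arrays left out (adjusted p up to 0.0979).

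Of 10 measured genes that break down beta-amino acids and methylarginine, the other substrates of Agxt2, 2 were higher and none lower (median difference 0.10). Hibch, a hydrolase of valine breakdown, was at 9.83 ± 0.12 in knockout (SD, n = 3) and 9.42 ± 0.13 in rescued livers (SD, n = 4), 1.33-fold higher (adjusted p = 0.0159). It did not pass when knockout array 1 or 2 was left out (adjusted p up to 0.0608). Abat, the aminotransferase of gamma-aminobutyrate, was 1.24-fold higher (adjusted p = 0.0266). It did not pass after median centring (adjusted p = 0.0648) or without knockout replicate 1 or rescued replicate 2 or 3 (adjusted p up to 0.0909).

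Of 18 measured genes of glycine, serine and sarcosine metabolism, into which Agxt delivers its product, 1 was higher and none lower (median difference 0.10). This was Gnmt, the glycine methyltransferase of the liver cytosol, at 12.94 ± 0.10 in knockout (SD, n = 3) and 12.58 ± 0.09 in rescued livers (SD, n = 4). It was 1.28-fold higher (adjusted p = 0.0169) and did not pass without knockout replicate 1 (adjusted p = 0.0646) or rescued replicate 2 (adjusted p = 0.0509). That none was lower did not hold in every setting. The list had 1 lower gene with trend and robust spread and 1 without rescued replicate 2, and lower genes in each of the 3 scalings. Gcsh, the carrier protein of glycine cleavage, passed as lower in all 3 scalings (adjusted p 0.0385 to 0.0485). Sardh, sarcosine dehydrogenase, did so after quantile and median scaling (adjusted p 0.0435 and 0.0255), and Glyctk, glycerate kinase, after median scaling alone (adjusted p = 0.0391).

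Of 10 measured genes of proline and hydroxyproline metabolism, 2 were higher and none lower, and neither passed after rescaling (median difference 0.15). In each of the 3 scalings the list instead had none higher and 1 lower, P4ha2, a catalytic subunit of collagen prolyl hydroxylase (adjusted p 0.0304 to 0.0355, against 0.0988 as deposited). P4hb, the disulfide isomerase that is also a subunit of collagen prolyl hydroxylase, was 1.20-fold higher (adjusted p = 0.0346, and 0.0598 to 0.107 in the 3 scalings). Aldh18a1, which makes the precursor of proline, was 1.19-fold higher (adjusted p = 0.0498, and 0.167 to 0.308 in the 3 scalings). Of 9 measured peroxisomal oxidase, catalase and import genes, 1 was higher and none lower (median difference 0.02). This was Pex5, the receptor that brings Hao1 and other matrix enzymes into peroxisomes, which was 1.19-fold higher (adjusted p = 0.0324) and did not pass after median centring (adjusted p = 0.110). There the single call was a lower one, of Ddo, the oxidase of D-aspartate (adjusted p = 0.0319). With single arrays left out, P4hb, Aldh18a1 and Pex5 each lost the call for 5 or more of the 7 arrays.

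The profiles of Hao1 and Prodh2 over the 7 arrays were set beside those of 17010 other named genes, each centred on its own mean. Likeness is the root mean square difference in log2 units, and since the groups are far apart it mostly finds genes with a difference of like size. The nearest gene to Hao1 was Slco1a1, an organic anion transporter of the hepatocyte membrane, at 0.40 log2 units. It had 9.36, 8.69 and 8.83 in knockout livers, against 11.18, 11.25, 11.42 and 11.08 in rescued livers, and like Hao1 it was highest in replicate 1 among the knockout livers. Slc22a30, of the organic anion transporter family, followed at 0.65 and the NADPH oxidase Nox4 at 0.68, and both were lowest in replicate 1 among the knockout livers, unlike Hao1. Hao1 and Prodh2 themselves differed by 0.86.

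Prodh2 had closer neighbours than Hao1. Zfp141, a zinc finger gene, lay at 0.177 log2 units, Akr1c20, of the aldo-keto reductase family, at 0.177 and Nox4 at 0.186. Akr1c20 had 9.20, 9.64 and 9.53 in knockout livers, against 10.55, 10.62, 10.73 and 10.67 in rescued livers. Like Prodh2, Zfp141, Akr1c20 and Nox4 were each lowest in replicate 1 of the knockout livers. The neighbours of Hao1 and Prodh2 were picked by likeness over these same arrays, so a shared order is not independent of that choice.

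**Figure D4:**
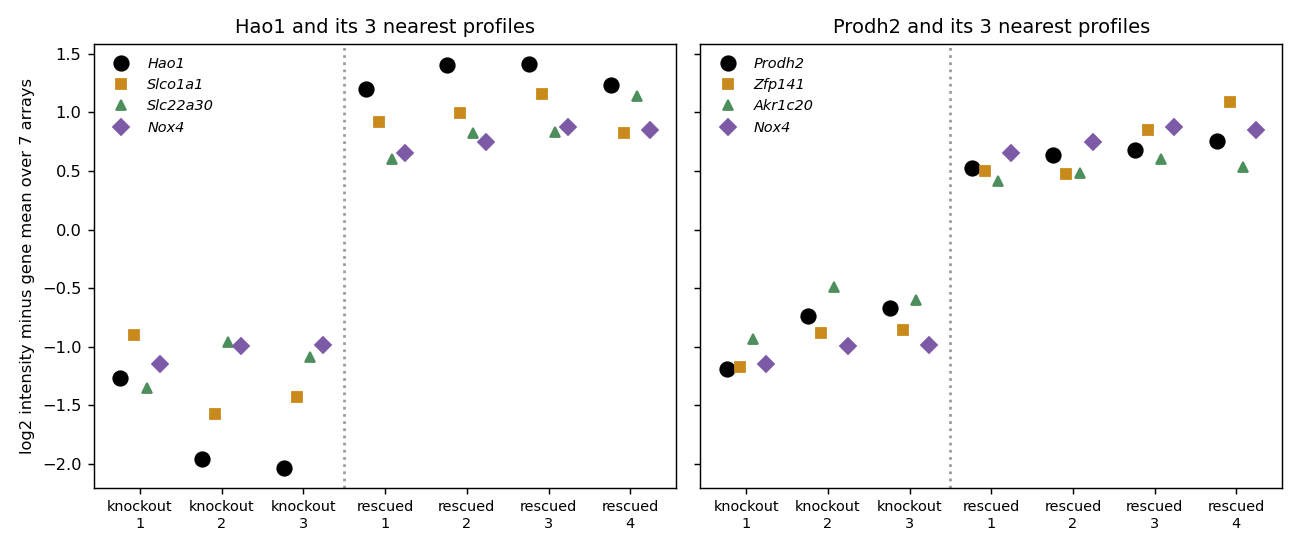
Log2 intensity of Hao1 (left) and Prodh2 (right) and of the 3 genes nearest to each, minus the gene's mean over 7 arrays, with knockout arrays left of the dotted line and rescued arrays right of it. Slco1a1 lies 0.40 from Hao1, while the 3 neighbours of Prodh2 lie 0.177 to 0.186 from it.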

How the data were processed

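The deposited table holds a linear intensity for each of 27541 probe sets and 7 arrays, from 5.41 to 17351, as found from its values. RMA and Partek were used by the authors for these intensity values, per the submitters' processing notes, which state no versions or roles, so the last scaling step is unknown. No source used here names a genome build for the array values, while the promoter windows are on GRCm38.p6. Groups come from the genotype labels, which the labels' titles call biological replicates.

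Log2 was taken, gene names came from the platform's annotation (21631 had 1 symbol, 1317 several, 4593 none, and 21544 of those with 1 symbol matched RefSeq), and the brightest probe set with 1 symbol stood for a gene, which gave 19933 genes with no filter on dim ones. The comparison used limma 3.58.1 under R 4.3.3 (lmFit, eBayes, two-sided, without covariates), and p-values were adjusted over all genes by Benjamini-Hochberg, with a threshold of 0.05. The fit was also run on simulated data with independent noise for each gene and no shift between arrays. Nothing above is read from that run, since the deposited arrays do differ in median intensity. The members, lists, motifs and naming rule were chosen with earlier results of these data known. By this rule, named genes are the members, Hdac3, up to 4 passing genes a list by size of difference, and the 3 nearest profiles of Hao1 and Prodh2 (members, predicted, small RNA and receptor genes left out). Outside the rule, P4ha2, Gcsh, Sardh, Glyctk, Ddo and Hyi were named because they passed after rescaling, once their values had been seen. Alternatives were 3 rescalings of the gene table, genes above the median level, the mean of probe sets, trend with robust spread, a replicate block, each array left out and a threshold of 0.01. The number of arrays limits the precision. A further promoter motif is not reported here.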

Additional observations from a re-analysis of the deposited data

Results flagged for a closer look

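The 8 members, Hdac3 and the 13 related genes that passed as deposited, 22 in all, were screened by Dixon's criterion. Of these, 3 had an array that stood apart from the other 3 of the rescued group, which chance meets in about 1 of 20 groups. For Hao2 it was rescued replicate 4, at 4.46 against 4.40 in each of the other rescued arrays, a small gap beside 3 equal values. For Agxt2 it was rescued replicate 2, at 10.22 against 10.44 to 10.48. For Aadat it was rescued replicate 4, at 10.87 against 10.39 to 10.42, and without it the difference of Aadat was -0.28 in place of -0.39.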

How the results depend on the processing

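The differences of Hao1, Prodh2, Agxt, Agxt2 and Grhpr moved by less than the within-group SD in all 14 alternatives run for them. Hao2 moved to -0.065, -0.043 and -0.071 and Ldha to 0.021, -0.0062 and 0.017 in the quantile, median and cyclic loess scalings, and Hoga1 to -0.20 after median centring. Hao2 lies below the median level and has no value in that filter. With each array left out, the count of all genes called ranged from 897 to 3263 (897 and 1721 with knockout array 1 or 2 left out, 1200, 948 and 1331 with rescued array 2, 3 or 4 left out), the related genes called from 3 to 14 and Hdac3 from -0.56 to -0.40. At a threshold of 0.01, 509 genes and 2 related genes were called. Of the calls over all genes 66.3% were higher as deposited, 45.9% after quantile, 27.2% after median and 44.98% after cyclic loess scaling. Same-numbered arrays did not deviate together in a way that pairs them (correlations of 0.15, 0.0028 and 0.0053, with 1 of 3 knockout arrays closest to its own number). With the replicate block, in which rescued replicate 4 has no partner, 1938 of all genes and 9 related genes were called and Hdac3 was at -0.49. The number of arrays, and for Hao2 a signal not shown to be above background, limit what can be read.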
